A study of Mus musculus with 2 samples.

Results

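ATAC-seq of live cells sorted for Olig2 expression was counted over consensus intervals, and 4059 of the 116817 autosomal intervals were nearly closed in these cells (3.47%, 95% Wilson interval 3.37 to 3.58). An interval was selected on its counts: the mean of the raw counts of the 2 libraries had to be under 10. The other 112758 autosomal intervals are the comparison throughout, and the sex chromosomes, where 125 of 2685 intervals had a mean under 10, were left aside. The cells derived from Olig2-mKate2, an embryonic stem (ES) cell line of the mouse that carries the red fluorescent protein mKate2 joined to Olig2 through a 2A peptide. It was differentiated to day 5 towards the ventral spinal cord with 100 nM retinoic acid (RA) and 100 nM SAG, a small-molecule agonist of the Shh pathway. The mKate2-positive cells were sorted live, and 50000 cells went into each transposition. There was 1 group of 2 replicates from 1 line, no untreated group, and nothing in the labels says that the replicates came from separate cultures. The libraries held 31876165 and 31672240 counts in all intervals. The TSS intervals (over a transcription start site) of the progenitor genes Olig2, Sox2 and Nkx6-1 held 2160, 3002 and 2440 counts in replicate 1. In replicate 2 these intervals held 2088, 2880 and 2378. Pax6, a further progenitor gene, had 2 TSS intervals, with 3278 and 637 counts in replicate 1 and 3230 and 655 in replicate 2.

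In ATAC-seq, the transposase Tn5 cuts DNA that is not wrapped tightly in nucleosomes, so that a promoter or enhancer in use collects many fragments. A consensus interval is a stretch where a peak was found in enough libraries of a project, and every library is then counted over it, including libraries in which it is closed. The deposited table had 5 library columns, of which 3 belong to no sample analysed here, and it does not record in which libraries each peak was found. Olig2 marks the pMN domain, whose progenitors give rise to motor neurons. The authors state that cells sorted by the reporter also include new motor neurons. They add that some cells hold both OLIG2 and NKX2.2, a marker of the more ventral p3 domain. Enhancers are opened by the transcription factors of each lineage: RUNX, ETS and T-box factors are known for those of blood and lymphocytes, and proneural E-box factors for those of differentiating neurons.

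The sequences below are from RefSeq's GRCm38.p6 assembly (mm10), on the plus strand, with coordinates counted from 1. They were chosen after their values were seen, as short members outside every exon and TSS with no 31-base word repeated elsewhere in the genome, and they show the motifs on which the results turn. In the first 5, capitals mark the RUNX motif TGTGGTT, and 3 of these lay nearest to lymphocyte genes: Fasl (the death ligand of cytotoxic cells), Klrc1 (an NK cell receptor) and Il2rb (a chain of the IL-2 and IL-15 receptors).
Fasl, chr1:161765104-161765267: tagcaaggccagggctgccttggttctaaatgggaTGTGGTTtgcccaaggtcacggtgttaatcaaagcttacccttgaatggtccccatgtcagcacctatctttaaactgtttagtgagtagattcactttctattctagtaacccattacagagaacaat
Klrc1, chr6:129680488-129680677: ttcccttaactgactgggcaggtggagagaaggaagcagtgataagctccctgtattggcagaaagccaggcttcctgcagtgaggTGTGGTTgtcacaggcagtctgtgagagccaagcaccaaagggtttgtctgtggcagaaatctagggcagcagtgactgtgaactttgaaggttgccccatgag
Il2rb, chr15:78512082-78512366: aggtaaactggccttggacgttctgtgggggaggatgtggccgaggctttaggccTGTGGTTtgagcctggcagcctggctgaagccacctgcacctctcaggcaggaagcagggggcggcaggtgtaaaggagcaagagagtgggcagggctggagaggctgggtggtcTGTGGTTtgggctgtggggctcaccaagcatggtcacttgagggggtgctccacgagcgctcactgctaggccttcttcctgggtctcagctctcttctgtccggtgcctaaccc
Il18r1, chr1:40475771-40476031: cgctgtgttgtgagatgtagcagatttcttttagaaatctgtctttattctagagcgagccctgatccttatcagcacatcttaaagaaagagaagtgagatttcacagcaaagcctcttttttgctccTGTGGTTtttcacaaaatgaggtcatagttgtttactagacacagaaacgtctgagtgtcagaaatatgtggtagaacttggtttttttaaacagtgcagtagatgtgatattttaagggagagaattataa
Atp10a, chr7:58392822-58393035: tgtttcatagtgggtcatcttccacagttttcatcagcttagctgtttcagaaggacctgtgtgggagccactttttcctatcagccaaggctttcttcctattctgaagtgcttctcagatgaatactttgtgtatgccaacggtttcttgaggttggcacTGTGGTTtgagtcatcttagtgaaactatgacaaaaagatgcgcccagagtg

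The Fasl interval, 23091 bp from the TSS in intergenic sequence, had 2 and 3 counts in replicates 1 and 2. The Klrc1 interval (intergenic, 1515 bp from the TSS) had 6 and 5 counts. The Il2rb interval (intergenic, 16811 bp from the TSS) had 5 and 9 counts and held the motif 2 times. The interval within an intron of Il18r1, a chain of the interleukin-18 receptor, had 0 and 1 counts, and that 263131 bp from the TSS of Atp10a, a phospholipid-transporting ATPase, had 2 and 0 counts.

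The next 2 lay near genes of neurons, and capitals mark the E-box CAGATG or its reverse complement. The last had 0 counts in both libraries and no repeated 31-base word, and capitals mark the RUNX motif on the minus strand.
Syt1, chr10:109450696-109450905: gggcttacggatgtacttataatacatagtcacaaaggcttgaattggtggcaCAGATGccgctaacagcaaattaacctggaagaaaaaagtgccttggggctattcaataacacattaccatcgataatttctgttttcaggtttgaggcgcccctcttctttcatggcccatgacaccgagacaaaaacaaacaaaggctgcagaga
Cntnap2, chr6:45270161-45270342: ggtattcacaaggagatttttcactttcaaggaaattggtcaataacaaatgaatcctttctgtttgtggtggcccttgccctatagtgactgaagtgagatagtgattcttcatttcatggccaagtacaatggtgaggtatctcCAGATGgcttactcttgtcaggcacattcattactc
Plscr5, chr9:91984396-91984557: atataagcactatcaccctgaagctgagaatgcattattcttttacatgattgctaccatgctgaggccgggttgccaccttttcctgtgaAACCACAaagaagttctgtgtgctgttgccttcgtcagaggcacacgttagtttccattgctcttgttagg

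The interval nearest to Syt1 (synaptotagmin 1, the calcium sensor of synaptic vesicles) lay 439714 bp from its TSS and had 7 and 4 counts. The interval within an intron of Cntnap2, a neuronal adhesion molecule, had 8 and 5 counts. Plscr5 was only the nearest gene, 208379 bp from the last interval, and its 0 counts allow up to 3 counts in each library.

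The counts that selected the members are given as a description. The median member had 6 counts in replicate 1 (quartiles 4 and 8, highest 18) and 7 in replicate 2 (quartiles 4 and 9, highest 16), against medians of 69 and 70 in the other intervals. Per kilobase of interval, the median mean count was 24.4 in members and 142.6 in the others. Together the members covered 1.15 Mb and held 24868 counts in replicate 1 (0.0780% of the library) and 26601 in replicate 2 (0.0840%). The limit cut through a continuous range: 408 intervals lay just inside it, with a mean of 9.5, and 409 just outside, with a mean of 10. The mean was under 5 in 1071 members and from 5 to under 10 in 2988. Counts outside the intervals are not in the table, so how far these counts lie above the level between intervals is not known.

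**Figure D1:**
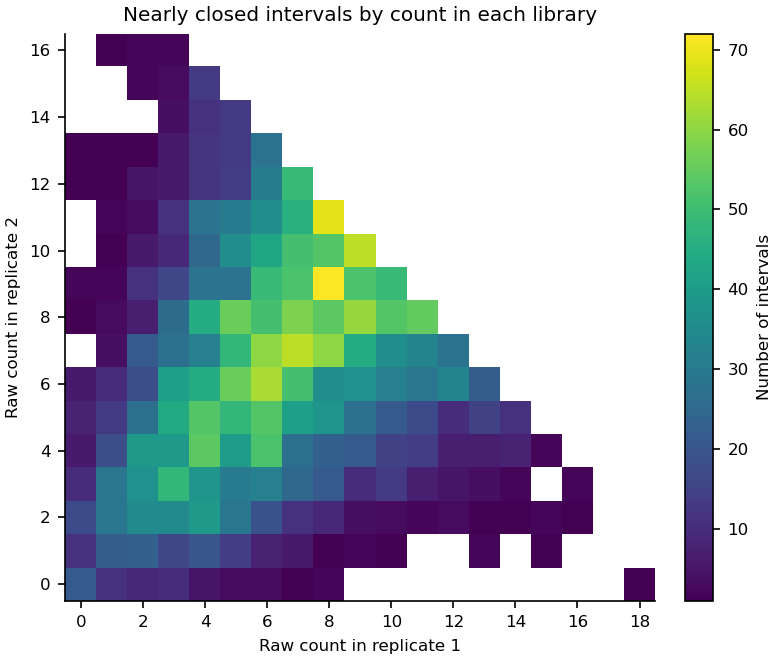
Number of nearly closed intervals (colour) by raw count in replicate 1 (x axis) and in replicate 2 (y axis); white cells hold none. The slanted upper edge is the limit of a mean under 10, and the quartiles are 4 and 8 counts in replicate 1 and 4 and 9 in replicate 2.

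With counts this low the choice depends on sampling. When intervals were selected on replicate 1 alone (count under 10), 4884 were chosen, and their count in replicate 2, which that choice did not use, had a median of 8 (quartiles 5 and 13, highest 33). When they were selected on replicate 2 alone, 4423 were chosen, with a median of 8 in replicate 1 (quartiles 4 and 12, highest 38). The unused library was under 10 in 56.6% and 62.5% of them. Of the 4059 members, 2765 (68.1%) were under 10 in both libraries. Of the intervals chosen on replicate 1 alone and on replicate 2 alone, 71.9% and 74.9% were members, so a single interval near the limit may fall on either side of it.

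Members were short, in part by construction, because the limit on raw counts was not scaled by length and so favours short intervals. The median length of members was 233 bp (quartiles 188 and 331, range 140 to 1385), against 543 bp (quartiles 304 and 931) in the other intervals. The ratio of these medians was 0.429, and it was 0.727 when as many intervals were chosen by counts per kb. The shares by gene context that follow were not adjusted for length. Of the members, 86 lay over the TSS of a protein-coding gene, 2.12% (1.72 to 2.61), against 12.7% (12.5 to 12.9) of the others. The share in coding exons was 3.57% against 7.07%, in UTRs 1.18% against 1.71%, and in exons of noncoding genes 3.15% against 4.41%. Introns held 45.7% of members against 39.5% of the others, and intergenic sequence 44.3% against 34.7%. Members away from a TSS lay a median of 45648 bp from the nearest one, against 33073.5 bp, and 33.0% of all members lay over 100 kb away, against 21.3%.

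**Figure D2:**
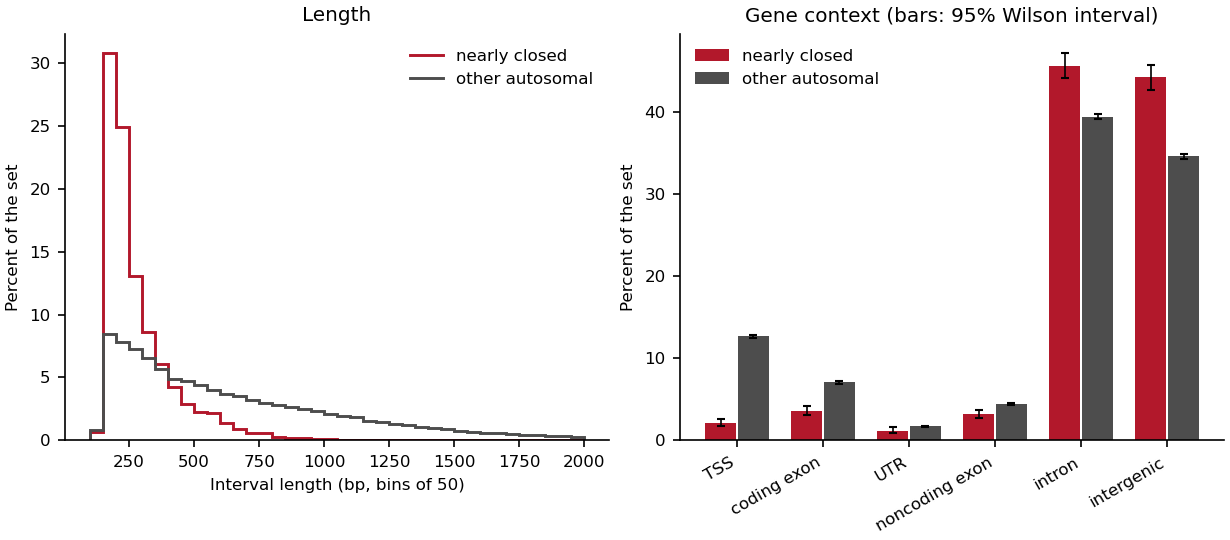
Left, the percent of nearly closed (red) and other autosomal intervals (grey) in each 50 bp bin of length from 100 to 2000 bp. Right, the percent of each set by gene context, with 95% Wilson intervals as error bars, where TSS intervals make up 2.12% of the nearly closed and 12.7% of the other set.

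The TSS difference turned with length. Among intervals of under 200 bp, 1.10% of 1278 members and 0.610% of 10487 others lay over a TSS, and among those of 500 bp or more 3.37% of 356 members and 22.5% of 60716 others did. When the others were limited to 580.1 bp, the 95th percentile of the members' length, the TSS share of members was higher by 0.672 percentage points instead of lower by 10.6. The intergenic share stayed higher in members in each of the 4 length classes, at 43.6 to 45.2% against 30.1 to 40.8%. By mean count, the TSS share was 3.17% under 5, 1.74% from 5 to under 10, 0.960% from 10 to under 20, and 29.3% at 100 or more, so the lowest intervals held more TSS than those just above them.

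Members were poorer in G and C, with a median of 46.2% against 49.5%, and had a median of 1.01 CpG per 100 bases against 1.34. More than 50% of the 31-base words sampled were repeated elsewhere in the genome in 4.85% of members (4.23 to 5.56) and in 1.98% of the others. Reads from such stretches can be lost or placed at another copy during alignment, and their part in the low counts was not tested. A member with at least 1 repeated word was rarer than among the longer other intervals, at 16.1% against 21.7%.

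Nearly closed intervals neighboured each other. The nearest interval on the chromosome was nearly closed too for 13.2% of members (12.2 to 14.3), against 3.50% of all autosomal intervals. There were 353 runs of 2 or more consecutive members, which held 831 members (20.5%), and 21 runs of 4 or more. The longest, with 12 intervals each, lay in the variable segments of the immunoglobulin heavy chain locus on chromosome 12, spanning 787.338 kb and 712.537 kb. The runs of 6 lay beside Rgs1 (a regulator of G protein signalling in lymphocytes), among the Klra receptors of NK cells, beside Gvin1 (a large interferon-inducible GTPase) and Olfr693, and near Cox7c and Rasa1. Runs of 5 lay at Ccl3 and Ccl4, at Il18r1 and Il18rap, at Cd53 and Kcna3, at Trim5 and Trim12a, and in and beside Mgat4c. The other runs of 5 lay outside every annotated gene and are named only by the nearest genes. These were Spry2 and Trim52 for a run of 66.378 kb and Otol1 for one of 448.082 kb.

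Antigen receptor loci are assembled by recombination in B and T cells. Over these loci together, 35 of 118 intervals (29.7%) were nearly closed, against 3.47% of all. In the immunoglobulin heavy chain locus 26 of 43 (60.5%) were, 18 of them with a mean under 5, and in the T cell receptor beta locus 6 of 19 (31.6%) were. The T cell receptor alpha and delta locus had 1 of 43, the kappa chain locus 1 of 12, the gamma locus 1 of 1, and the lambda locus no interval. The heavy chain members stand at the top of the ranking of genes by share under the names Zfp386 (18 of 20 nearest intervals) and Adam6a (8 of 15), the protein-coding TSS on either side of the segments, and most lay on V segments themselves. At the Ighv1-81 segment the count was 0 in both libraries and at Ighv1-55 it was 8 and 10. More than 50% of the 31-base words were repeated in 39.5% of the 43 heavy chain intervals and in none of the 19 beta chain intervals. V segments are copies of one another, so these members share sequence and are not independent.

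Lists of genes of blood cell types differed widely in their share of nearly closed intervals, which was 3.47% over all intervals. The NK and cytotoxic cell list, chosen after values of these data were seen, had 44 of 116 nearest intervals nearly closed (37.9%, 29.6 to 47.0), spread over 18 of its 19 genes. The pan-leukocyte list had 15 of 131 (11.5%), the T cell list 10 of 126 (7.94%), the myeloid list 4 of 52 (7.69%), the B cell list 2 of 94 (2.13%) and the erythroid list 0 of 49, all chosen likewise. When the NK genes that had already been met through the Klr family, a TSS member or a high rank were left out, the remaining 7 genes had 12 of 56 intervals nearly closed (21.4%), and all 7 had a member. Left out likewise, the T cell list kept 17 genes with 5 of 90 (5.56%), and 4 of these genes had a member. The pan-leukocyte list kept 8 genes with 6 of 87 (6.90%), and 4 of these had a member. Of all 17264 genes with an autosomal interval nearest to them, 2630 had a member. The share of intervals nearest to a gene of the T cell, NK or pan-leukocyte lists was 2.80% (1.97 to 3.97) at a mean under 5, 1.31% from 5 to under 10, 0.531% from 10 to under 20 and 0.179% at 100 or more. These lists were written with values of these data known. Neither the shares by count nor those after leaving genes out are therefore an independent check.

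Cytokine and killing genes made up most of the NK list's members. Ifng, which encodes interferon gamma, had 7 of 14 intervals nearly closed, and its TSS interval had 8 and 9 counts. The most closed of the Ifng intervals, 5245 bp from the TSS, had 2 and 1 counts. Fasl had 6 of 14, with 5 and 7 counts at the TSS. The granzyme gene Gzmb had 6 and 4 counts at its TSS and 3 and 2 at an interval 22190 bp away. The chemokine genes Ccl3, Ccl4 and Ccl5 had 10 and 4, 9 and 7, and 7 and 3 counts at their TSS. None of these TSS intervals had more than 10 counts in either library.

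Receptors and regulators of the same cells followed. Ncr1, an activating NK receptor, had 4 and 11 counts at its TSS, and Cd226, an adhesion receptor of T and NK cells, 8 and 5. Nkg7 (a granule protein) had members with 1 and 2 and with 4 and 4 counts, while its TSS interval had 18 and 15. Of the T-box factors that direct cytotoxic lymphocytes, Tbx21 had members with 4 and 6 and with 7 and 9 counts, and Eomes members with 5 and 10 and with 5 and 4. These were 2 of 9 and 2 of 14 intervals, the Eomes members lay 103178 and 120382 bp from its TSS, and the TSS intervals were open, with 401 and 417 counts at Tbx21 and 1329 and 1215 at Eomes. Prf1, which encodes perforin, had an intronic member with 8 and 5 counts, and Gzma members with 7 and 8 and with 4 and 4. Killer lectin receptor genes (Klr) as a family had 15 of 53 (28.3%), at 12 genes.

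Among genes of T cell signalling, the kinase gene Zap70 had 1 of 7 intervals nearly closed, over a TSS, with 5 and 9 counts, while its other TSS interval had 9 and 21. The costimulator gene Icos had 2 and 2 at its TSS, the only member among its 26 intervals, and Lck, the kinase that acts with CD4 and CD8, 3 and 2 at an intronic interval. Cd28 had 2 members within introns, with 4 and 9 and with 6 and 1 counts. Of the 20 genes on the T cell list 7 had a member, against 2630 of the 17264 genes with an autosomal interval nearest to them. Bcl11b had none among 26 intervals, with 1985 and 2036 counts at its TSS. Cd5 had none among 8, and the Lat TSS interval had 37 and 51 counts. Of the genes shared by leukocytes, the tetraspanin gene Cd53 had all 3 intervals nearly closed, with 1 and 0 counts at the TSS. The integrin gene Itgb2 had 4 and 5 counts at its TSS, the adaptor gene Fyb 9 and 5, and Arhgap15, a GTPase-activating protein, 1 and 4. Members were 1 of 6 intervals at Itgb2, 2 of 11 at Fyb and 3 of 24 at Arhgap15. Other genes of this list were open at the TSS, with 1250 and 1287 counts at Ikzf1 and 644 and 651 at Coro1a. Ptprc had 2 of 41 intervals nearly closed and Laptm5 had 0 of 13.

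The blood list had 10 of 107 intervals nearly closed (9.35%, 5.16 to 16.4), of which 6 belonged to Runx1, the regulator of blood stem cell emergence. One of these, of 814 bp, lay over a Runx1 TSS and had 6 and 11 counts. The lowest, 54650 bp from a TSS, had 1 and 2. The other Runx1 intervals reached a mean of 1742.5, so the gene was not low throughout. Spi1, the ETS factor of myeloid and B cells, had 1 member with 8 and 7 counts.

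Families of immune genes added after values were seen all had shares above the 3.47% of all intervals. Gimap genes (GTPases of lymphocytes) had 6 of 12 (50.0%), granzymes 4 of 16 (25%), guanylate-binding proteins 5 of 23 (21.7%) and the interferon-induced Ifi and Ifit genes 5 of 26 (19.2%). The TNF superfamily had 15 of 155 (9.68%), interleukins and their receptors 25 of 306 (8.17%), CD antigens 33 of 419 (7.88%), chemokines and receptors 17 of 217 (7.83%) and Fc receptors 3 of 44 (6.82%, 2.35 to 18.2). These lists overlap in genes, and the 95% interval for the Gimap genes ran from 25.4 to 74.6%.

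Most other families and lists lay nearer to the share of all intervals. Serpins, a family of protease inhibitors, had 10 of 95 (10.5%), Trim genes 21 of 330 (6.36%), olfactory receptors had 16 of 319 (5.02%), vomeronasal receptors 7 of 113 (6.19%), protocadherins 19 of 317 (5.99%), potassium channels 34 of 831 (4.09%), cytochromes P450 7 of 189 (3.70%), Zfp zinc finger genes 65 of 1883 (3.45%, of which 18 were the heavy chain intervals counted under Zfp386), solute carriers 2.86% (62 members) and defensins, antimicrobial peptides of innate immunity, 1 of 69 (1.45%). The skeletal muscle list had 6 of 109 (5.50%), all at Mef2c, a factor active in muscle, neurons and lymphocytes, where both TSS members had 9 and 9 and 10 and 8 counts. These were 6 of the 40 Mef2c intervals, and its other TSS interval had 334 and 335 counts. The neuron list had 16 of 337 (4.75%), with none of its 23 TSS intervals. Endoderm had 2 of 63 (3.17%), fibroblast 3 of 110 (2.73%) and pluripotency 2 of 83 (2.41%).

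Lists of the ventral neural tube had shares below the 3.47% of all intervals, but the 95% interval of each included it. The pMN and shared progenitor list had 3 of 228 (1.32%, 0.448 to 3.80), 1 each at Pax6, Sox2 and Irx3, with 5 and 8, 9 and 5, and 8 and 11 counts. The p3 and floor plate list had 1 of 122 (0.820%), at Sim1, motor neuron genes 1 of 81 (1.23%), at Lhx3, the Shh response list 3 of 118 (2.54%), at Gli2 and Gli3, and other progenitor and interneuron genes 5 of 179 (2.79%). Hox genes had 1 of 153 (0.654%). Keratins (0 of 110), housekeeping genes (0 of 47) and neuromesodermal genes (0 of 37) had none.

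**Figure D3:**
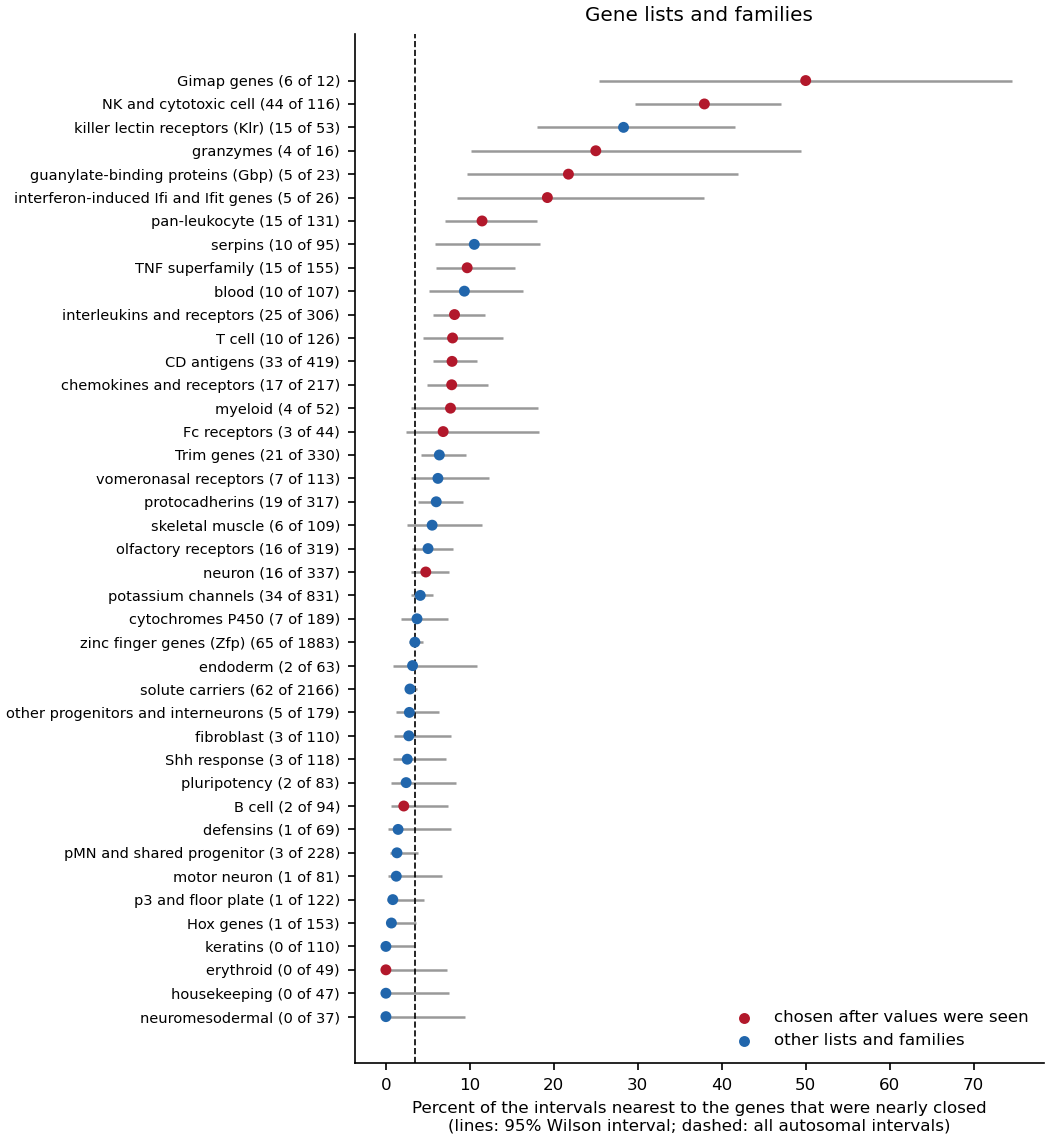
Percent of autosomal intervals that were nearly closed (x axis) among those nearest to the genes of each list or family (y axis, with counts), with 95% Wilson intervals as grey lines and 3.47%, the share over all autosomal intervals, as a dashed line. Red points are lists and families added after values were seen. The others were also chosen with earlier results of these data known. Gimap genes, the NK and cytotoxic cell list and the Klr receptors are highest.

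Other single genes ranked high by the number or the share of their members. Clnk (an adaptor of immune receptor signalling) had 8 of 22 intervals nearly closed, Tox (an HMG-box factor of T cell development) 9 of 38, Tnfrsf1b (a TNF receptor) 5 of 12, Ptk2b (the kinase PYK2) 5 of 13 and Dthd1, which encodes a death domain protein, 4 of 11. The Clnk TSS interval had 9 and 7 counts. In Tox, 6 of 9 members had a mean under 5, and the lowest had 1 and 3 counts, but its TSS interval had 1417 and 1345, and 5 of the members were intergenic, 272931 to 605474 bp from the TSS. By the same rankings, Adgrl2 had 8 of 119, Adgrl3 7 of 59, Cntnap5b 7 of 50, Flrt2 8 of 35, Sel1l 10 of 38, G6pd2 6 of 14 and Mgat4c 6 of 15. The 10 members nearest to Sel1l lay 526978 to 1497057 bp from its TSS, and the 8 nearest to Adgrl2, a latrophilin adhesion receptor of neurons, 59783 to 969520 bp from it. By contrast, 4 of the 6 Mgat4c members and 3 of 7 each at Adgrl3 and Cntnap5b lay in introns of the gene itself. None of the Adgrl2 members and 8 of the 12 Atp10a members (of 38 intervals) had a mean under 5.

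**Figure D4:**
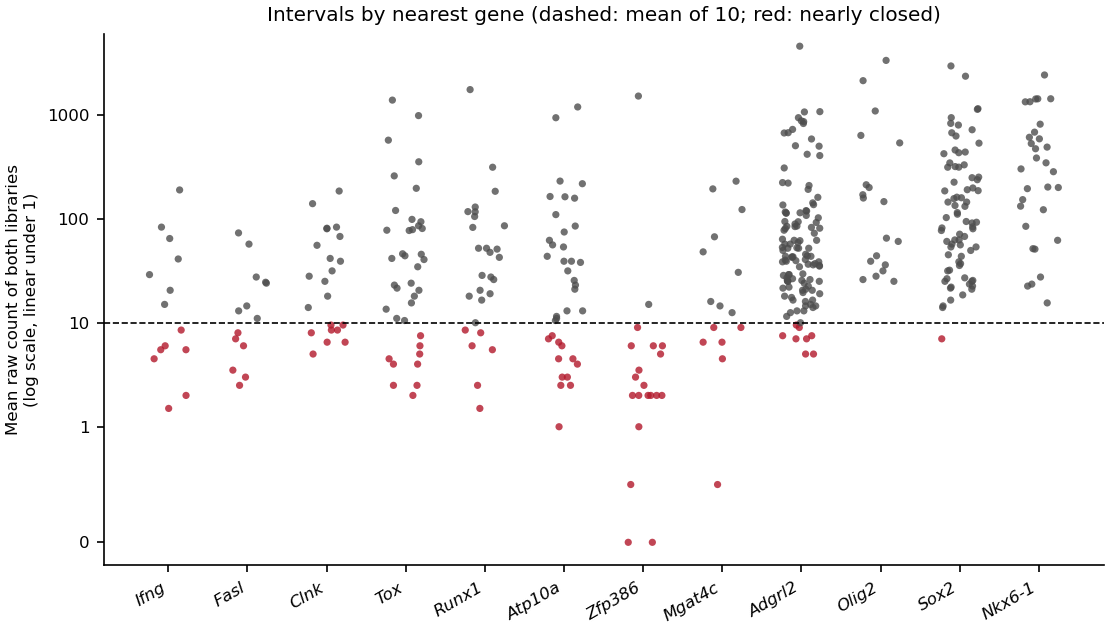
Mean raw count of both libraries (y axis, log scale, linear under 1) of every autosomal interval nearest to each of 12 genes, with members in red and the limit of 10 dashed; sideways spread is for legibility. Members of Ifng, Fasl and Zfp386 make up 7 of 14, 6 of 14 and 18 of 20 intervals, whereas Olig2 and Nkx6-1 have none and Sox2 has 1 of 77.

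Members were found near 2630 of the 17264 genes that had an autosomal interval nearest to them, of which 1817 had exactly 1 member and 70 had 5 or more. In 97 genes every interval was nearly closed, 19 of them with 2 or more intervals. These 19 included Gvin1 and Trim5 with 4 each, Cd53, Il18r1 and Stap1 (an adaptor of B cell signalling) with 3 each, and, with 2 each, Ccl3, Bin2, Klri2, Ctla2b, Gbp10, Ccdc146, Cnga1, Fam187b, Gm49369, Olfr1258, Olfr693 and Rtp2.

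The 86 TSS members belonged to 84 genes and made up 0.598% of the 14380 autosomal TSS intervals. In 68 of the genes no TSS interval was open beyond the limit. The lowest were those of Trim12a and Slc28a2 (0 counts in both libraries), BC147527 (0 and 1), Cd53 (1 and 0), Ifi208 (0 and 2), Klra5 (2 and 0), Bcl2a1b (0 and 2), Phf11a (2 and 1), Trim30d (2 and 2) and Cd200r4 (2 and 2). Of all 86, 15 belonged to the T cell, NK and pan-leukocyte lists, which were chosen after values were seen, and 8 were more than 50% repeated. By list, in that order, members were 3 of 8, 8 of 14 and 4 of 7 TSS intervals, against 0.598% of all TSS intervals. Other TSS members whose genes were not on those lists, picked after their values were seen, were 1 of those of Txk (a T cell kinase) and those of Grap2 (an adaptor of T cell signalling), Cd69 (an early activation marker of lymphocytes), Gimap7 and Batf (an AP-1 factor of lymphocytes), which had 3 and 5, 8 and 4, 7 and 6, 4 and 3, and 6 and 6 counts. Those picked are all genes of lymphocytes, and the 86 were not sorted by cell type. They also included the TSS members of Hk1, Myo7a, Baz1a and Mfsd6, with 8 and 8, 11 and 6, 8 and 8, and 7 and 7 counts. TSS members had a median GC content of 49.4%, 1.47 CpG per 100 bases and a length of 306 bp, against 60.0%, 6.02 and 1217 bp in the other TSS intervals, whose median mean count was 1058.75.

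Short motifs were counted in the central 150 bases of each interval, on both strands, because members and the others differ in length. A match describes the letters only. The RUNX motif TGTGGTT was in 11.5% of members (10.6 to 12.5) and 3.04% of the others, a ratio of 3.79. The T-box motif AGGTGTGA was in 1.95% against 0.485%, a ratio of 4.01, and the ETS motif GGAAGT in 15.7% against 9.15%. These 3, with the GATA motif AGATAA (9.09% against 7.10%) and CAGATGG, were searched after the nearest genes had been seen. The rest were also chosen with earlier results of these data known. Of the other motifs, the AP-1 motif TGANTCA was in 8.43% against 4.94%, the E-box CAGATG in 22.7% against 15.1%, the homeodomain motif TAATTA in 4.48% against 3.67%, the SOX motif AACAAT in 11.4% against 9.91% and the E-box CAGCTG in 13.6% against 12.2%. The forkhead motif TGTTTAC (2.41% against 2.19%), the octamer ATGCAAAT (1.28% against 1.15%) and the RFX motif GTTGCCA (2.02% against 2.44%) had intervals that overlapped between the sets. The CTCF core AGGNGGC was rarer in members, at 7.61% against 13.7%.

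The RUNX and E-box motifs parted within the members. TGTGGTT was in 18.9% of intervals with a mean under 5 (16.6 to 21.3), 8.87% from 5 to under 10, 3.92% from 10 to under 20 and 2.45% at 100 or more. GGAAGT was in 20.8%, 13.9% and 9.56% of the lowest 3 classes, and AGGTGTGA in 2.71%, 1.67% and 0.842%. CAGATG was instead in 16.2% (14.1 to 18.5) under 5, 25% (23.5 to 26.6) from 5 to under 10 and 22.1% from 10 to under 20, and in 11.1% at 100 or more. CAGATGG, which contains CAGATG, followed it with 4.86%, 11.5% and 9.78%. Among the 4059 members, 388 held TGTGGTT without CAGATG, 842 held CAGATG without TGTGGTT, 79 held both and 2750 held neither.

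**Figure D5:**
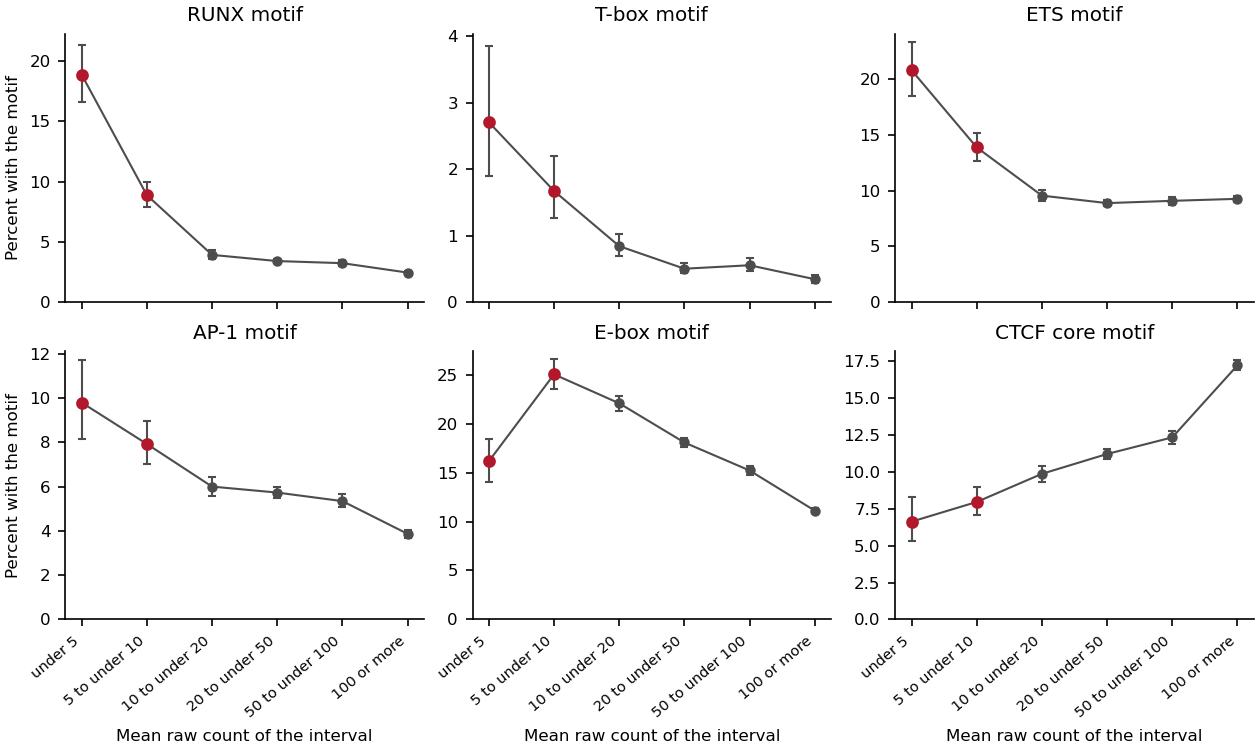
Percent of autosomal intervals whose central 150 bases hold each of 6 motifs (y axis, starting at 0) by mean raw count (x axis), with 95% Wilson intervals; red points are the nearly closed intervals. The RUNX, T-box and ETS motifs are most common under a mean of 5, the E-box peaks at 25% from 5 to under 10, and the CTCF core rises with the count.

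The RUNX difference was present in every class of length and of GC content. TGTGGTT was in 9.62 to 14.9% of members and 2.72 to 3.47% of the others across the 4 length classes. It was in 9.27%, 12.8% and 13.5% of members with a GC content under 45%, from 45 to under 50% and of 50% or more, against 3.48%, 3.48% and 2.55% of the others. The E-box difference depended on length: CAGATG was in 27.0% against 18.9% of intervals of under 200 bp but in 17.0% against 17.3% of those of 300 to under 500 bp. The RUNX motif was in 11.6% of the 69 members nearest to a T cell, NK or pan-leukocyte gene and in 11.5% of the other 3990. TSS members held TGTGGTT in 10.5% and GGAAGT in 27.9%, against 1.46% and 10.5% of the other TSS intervals.

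A count of 0 was rare: 84 autosomal intervals had none in replicate 1, 66 in replicate 2 and 21 in both. Of these 21, 10 were more than 50% repeated and 20 had at least 1 repeated 31-base word, so all but the Plscr5 interval printed above had a partial copy elsewhere. They included 4 consecutive intervals at Trim5 and Trim12a, members of an antiviral Trim cluster on chromosome 7, 3 in the heavy chain locus, and 1 each beside Klrc2 and within Gbp8. The longest members were an intergenic interval of 1385 bp on chromosome 9 (13 and 6 counts), one of 1301 bp on chromosome 13 in the Rasa1 run (3 and 5), the Trim12a TSS interval of 1224 bp (0 and 0), one of 1220 bp in a noncoding exon near Samd9l (4 and 0), and one of 1189 bp in an intron of Abcb1a, a drug efflux transporter (6 and 7).

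Members lay on every autosome. Their share was lowest on chromosome 8, with 112 of 8286 (1.35%, 1.12 to 1.62), and ran from 2.73% on chromosome 19 to 4.57% on chromosome 10 elsewhere. Under a mean of 5, chromosome 8 had 17 intervals (0.205%), against 0.706 to 1.43% on the other autosomes.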

How the data were processed

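Live ATAC-seq was performed by the authors on sorted mKate2-positive cells. They processed reads with the nf-core atacseq pipeline (mm10, MACS FDR 1e-05), and the deposited raw counts per consensus interval and interval lengths came from featureCounts 2.0.1 (minimum overlap 0.2 of a read, reads assigned to every overlapping interval). The 3 columns of other samples were not used. Here, members were autosomal intervals with a mean raw count under 10. The members, gene lists, families and motifs were chosen with earlier results of these data known.

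TSS, exons and nearest protein-coding genes were taken from GENCODE M21, in the order TSS, coding exon, UTR, noncoding exon, intron, intergenic. Repeated sequence was the share of 31-base words, taken every 10 bases, that occur more than once in GRCm38.p6. Motifs were searched in the central 150 bases. Shares carry 95% Wilson intervals, which cover counting error only and treat intervals as independent. No p-value was computed, because the rule used the counts and there was 1 group. Size factors for alternatives came from DESeq2 1.42.0 and edgeR 4.0.16 in R 4.3.3, and other steps used Python 3.11.15, numpy 2.4.6 and pandas 2.3.3. The search for repeated words, the nearest-TSS call and the overlap call were tested on simulated data, and the other steps were not. Named genes were those with the 10 highest numbers or shares of members (shares with at least 10 intervals), the 10 lowest TSS members, the 5 longest members, the 5 longest runs, members near listed genes, and intervals at 0. Of 199 list symbols, 1 was not found. Results for some genes are not reported here.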

Additional observations from a re-analysis of the deposited data

How the results depend on the processing

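No paired analysis was possible because the series holds a single group. The number of nearly closed intervals was 1071 with a limit of 5 and 15932 with a limit of 20. With a limit of 5 and of 20, respectively, in place of 10, the difference in TSS share was -9.22 and -12.8 percentage points (-10.6 as reported), in intergenic share 13.4 and 5.42 (9.62), in median GC -3.90 and -1.89 (-3.34), in the RUNX motif share 15.7 and 2.91 (8.47) and in the share nearest to T cell, NK or pan-leukocyte genes (lymphoid difference) 2.50 and 0.590 (1.43). The TSS distance ratio was 1.28 and 1.21 (1.38) and the neighbour share 8.68% and 21.9% (13.2%). The length ratio was 0.373 with a limit of 20 (0.429), and with a limit of 5 the repeated share difference was 5.26 (2.88) and the E-box difference 0.773 (7.57).

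Choosing as many intervals by counts per kb gave a length ratio of 0.727, a TSS difference of -9.56, a repeated difference of 2.21, a neighbour share of 17.1%, an E-box difference of 1.95 and a lymphoid difference of 2.07. With others no longer than 580.1 bp, the TSS difference reversed to 0.672, and the intergenic, GC and E-box differences were 4.45, -2.52 and 4.55. Counting any repeated 31-base word reversed the repeated difference to -5.66, and TSS of all annotated genes gave a TSS difference of -12.3 and a distance ratio of 1.25.

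Without 1 replicate, the number was 4423 to 4884, the length ratio 0.411 to 0.418, the TSS difference -10.8 (both), the intergenic difference 7.25 to 7.93, the distance ratio 1.24 to 1.31, the GC difference -2.88 to -2.82, the repeated difference 2.47 to 3.27, the neighbour share 11.5 to 12.4%, and the RUNX, E-box and lymphoid differences 7.04 to 7.46, 6.19 to 6.72 and 1.31 (both). Leaving out repeated intervals or antigen receptor loci, chosen after seeing the data, moved none of the results recomputed beyond its spread. The causes were not tested. The RUNX and lymphoid alternatives were also chosen after seeing the data. Depth limits what single intervals can show, since members hold at most 18 counts in a library.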
